A study of Mus musculus with 12 samples.

Results

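The genes described here are 10 markers of the meninges and of fibroblasts, measured in hippocampal RNA: Ogn, Lum, Dcn, Col1a1, Col1a2, Aebp1, Islr, Slc13a4, Slc22a6 and Igf2. They were chosen as a named list with earlier results of these data known, and were matched by Ensembl gene identifier. All 10 were listed with a value in each of the 12 mice and passed the filter on low values, against 24590 genes listed in at least 1 mouse and 14213 tested. The 12 mice formed 4 groups of 3. They were knockouts with exons 6 and 7 of Shank2 deleted, their wild-type controls, knockouts with exon 7 of Shank2 deleted, and the wild-type controls of that second line. Shank2 encodes a scaffold protein of the postsynaptic density of excitatory synapses. Their strain is labelled as mixed between C57BL/6J and C57BL/6N. The labels name hippocampi as the tissue, and describe the mice used for behaviour as male littermates of 8 to 15 weeks; the age of the mice sequenced is not stated separately. No label mentions a Cre or a conditional allele, how the hippocampi were dissected, or whether the meninges and the choroid plexus were removed.

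The meninges are the membranes around the brain, and fibroblasts of the pia and arachnoid make much of their matrix. Type I collagen forms the fibres of this matrix, small leucine-rich proteoglycans sit on the fibres and set their spacing, and organic ion carriers in the same membranes move solutes between cerebrospinal fluid and blood. Igf2, a growth factor, is made in the adult brain mainly by the leptomeninges and the choroid plexus. The hippocampus has pia on its surface and along its fissure and lies against the choroid plexus of the lateral ventricle, so RNA of these tissues can be present in a hippocampal sample. In bulk RNA, fewer cells of a type and less RNA per cell cannot be told apart.

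Values are FPKM, a unit of RNA level normalized for transcript length and sequencing depth, scaled between libraries; being per length, they allow levels of different genes to be set side by side. Values per mouse are given throughout in the order of mice WT778, WT809 and WT865 (exon 6-7 wild type), KO776, KO777 and KO864 (exon 6-7 knockout), WT628, WT993 and WT999 (exon 7 wild type) and KO969, KO990 and KO994 (exon 7 knockout). Shank2 was at 14.4, 13.8 and 14.9 FPKM in the exon 6-7 wild types and at 6.22, 7.02 and 6.15 in the knockouts, so the groups did not overlap. It was at 36, 42.4 and 44.1 FPKM in the exon 7 wild types and at 33.2, 43.5 and 44.6 in the knockouts, which overlapped, so the summed level of the gene does not check the labels of that line. All 17 markers of hippocampal neurons were listed and tested; Slc17a7, the vesicular glutamate transporter of excitatory neurons, was between 393 and 487 FPKM in the 12 mice. The share of mitochondrial transcripts was 6.22 to 7.39% in the exon 6-7 mice and 10.3 to 14.3% in the others. The 4 libraries of mice WT778, KO776, WT628 and KO969, 1 in each group, do not list a small RNA (ENSMUSG00000095746) that stands at 218 to 435 FPKM in the other 8; the labels give no batch, and the 4 are called set A and the 8 set B. In exon 6-7 wild-type mouse WT865 the 23 choroid plexus markers tested summed to 142 FPKM, against 4349 and 9310 in the other 2 wild types and 7530 to 9203 in the knockouts. For many results of the exon 6-7 line that shift without mouse WT865, the value without it is given as well.

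In all 4 groups Igf2 had the highest level of the 10 genes and Dcn the second highest, and no mouse of a group put Dcn above Igf2. Igf2 and Dcn together gave most of the summed level, with Igf2 at 36.2 to 62.7% and Dcn at 16.3 to 35.7% of the sum of the 10 in a mouse. Islr, Aebp1 and Slc13a4 took the next 3 places in every group, in changing order, and their ranges overlapped in each group. Col1a2 was in 6th place in every group, and Slc22a6 was in the last. Between them Col1a1, Lum and Ogn lay between 1.05 and 5.11 FPKM in all mice, where a fold change on the scale used for testing is understated. The 10 genes summed to 121, 197 and 115 FPKM in the exon 6-7 wild types and to 187, 225 and 183 in the knockouts, so that wild-type mouse WT809 stood among the knockouts. In the exon 7 line they summed to 123, 129 and 118 FPKM in the wild types and to 139.8, 140.4 and 153 in the knockouts, without overlap.

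**Figure D1:**
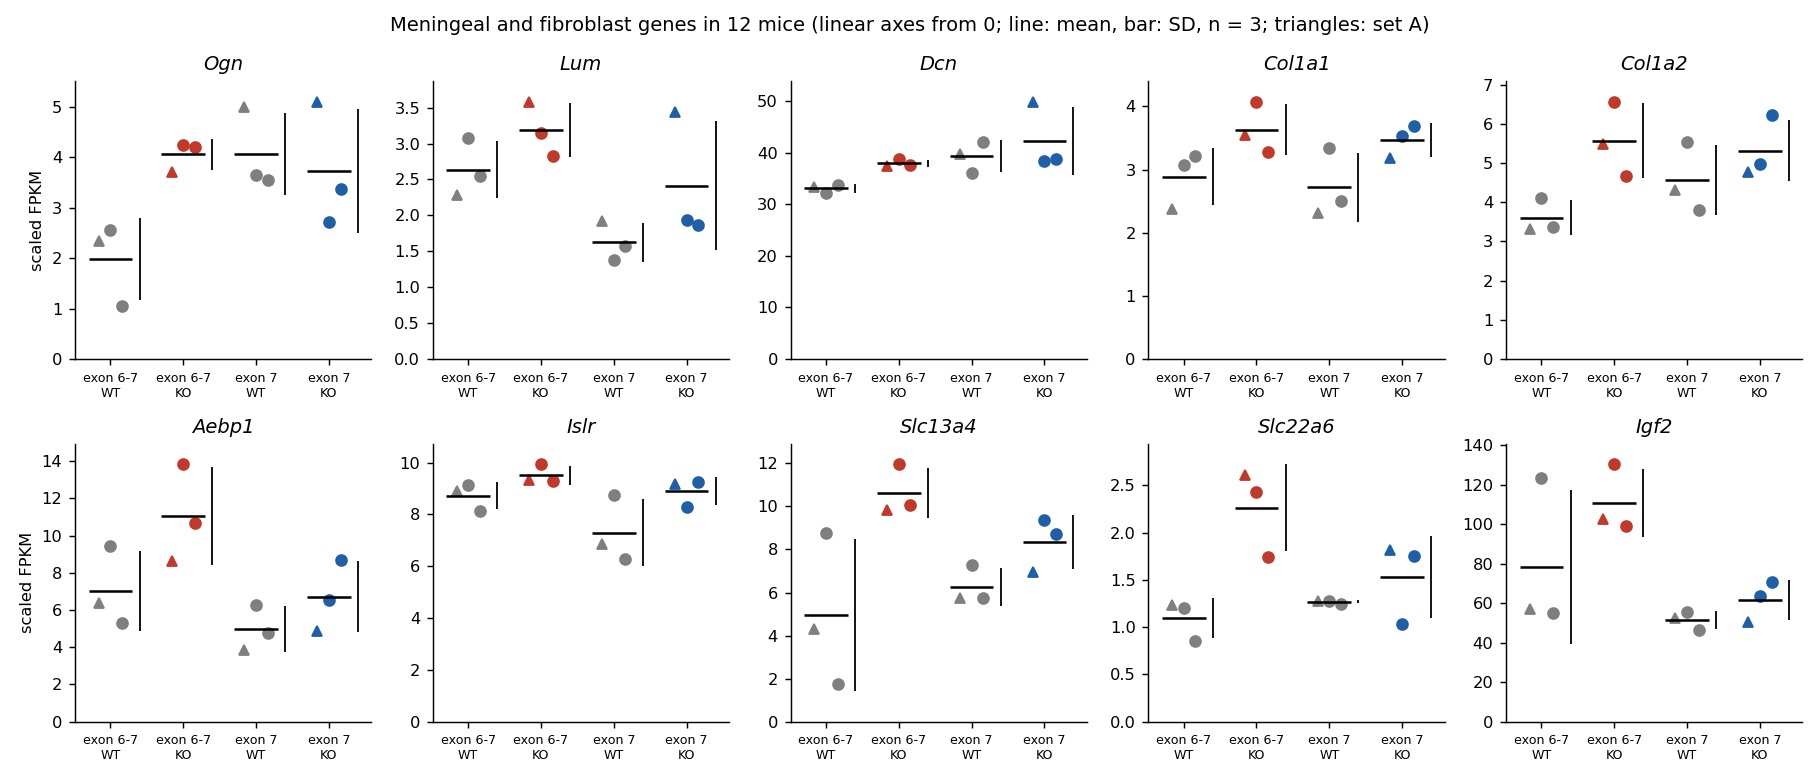
Scaled FPKM of the 10 genes in each of the 12 mice, on linear axes that start at 0, with the mean (horizontal line) and SD (vertical bar) of each group of 3; triangles are set A and circles set B. In the exon 6-7 line the 3 knockouts lie above the 3 wild types for 7 of the 10 genes, and wild-type mouse WT809 is the point that reaches the knockouts for Lum, Aebp1 and Igf2.

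Promoter sequences are shown for the 4 genes with the smallest p-values in the exon 6-7 line, which are Slc22a6, Ogn, Slc13a4 and Col1a2, as the stretches from 250 bases before to 50 after the RefSeq start on GRCm38.p6. Of the 10 genes, 7 had a promoter in the RefSeq table used. The stretches were searched on both strands for CCAAT, the box bound by nuclear factor Y, and for TATAAA; capitals mark CCAAT or its complement ATTGG, and TATAAA or its complement TTTATA.
Slc13a4 promoter, chr6:35308077-35308376 (- strand): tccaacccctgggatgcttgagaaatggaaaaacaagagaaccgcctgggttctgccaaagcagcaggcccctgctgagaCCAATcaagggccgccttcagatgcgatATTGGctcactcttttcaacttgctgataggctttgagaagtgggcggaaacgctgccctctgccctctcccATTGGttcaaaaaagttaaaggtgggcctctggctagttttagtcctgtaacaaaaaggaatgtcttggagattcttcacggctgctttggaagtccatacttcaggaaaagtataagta
Slc22a6 promoter, chr19:8617746-8618045 (+ strand): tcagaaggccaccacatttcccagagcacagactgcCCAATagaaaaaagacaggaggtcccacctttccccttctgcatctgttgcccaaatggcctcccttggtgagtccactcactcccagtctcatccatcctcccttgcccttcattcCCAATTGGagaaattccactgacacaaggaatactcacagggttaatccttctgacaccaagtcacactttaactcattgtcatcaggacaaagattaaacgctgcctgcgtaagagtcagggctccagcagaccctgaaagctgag
Col1a2 promoter, chr6:4505368-4505667 (+ strand): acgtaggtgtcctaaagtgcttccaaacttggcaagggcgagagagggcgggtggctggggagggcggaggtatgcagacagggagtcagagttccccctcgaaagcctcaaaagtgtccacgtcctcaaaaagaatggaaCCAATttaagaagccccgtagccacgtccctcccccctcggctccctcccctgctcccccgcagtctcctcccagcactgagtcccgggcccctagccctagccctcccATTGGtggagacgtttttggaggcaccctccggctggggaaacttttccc
Ogn promoter, chr13:49607765-49608064 (+ strand): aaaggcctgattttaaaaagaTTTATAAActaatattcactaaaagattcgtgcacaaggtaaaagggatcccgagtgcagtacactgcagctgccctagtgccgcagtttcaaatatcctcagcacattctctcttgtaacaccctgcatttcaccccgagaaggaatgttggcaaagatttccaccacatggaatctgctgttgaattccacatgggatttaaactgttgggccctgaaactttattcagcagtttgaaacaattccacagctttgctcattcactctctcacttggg
CCAAT occurred 3 times in the Slc13a4 stretch, 170, 142 and 70 bases before the start. It occurred 3 times in the Slc22a6 stretch, at 214, 97 and 94 bases before the start, where the last 2 matches overlap as a CCAAT and an ATTGG. The Col1a2 stretch held it 2 times, 109 bases before the start and at the start itself. The Ogn stretch held none, and instead 2 overlapping matches to TATAAA, 229 and 227 bases before the start. Of the 32851 mouse promoter stretches of the same length, 37.4% held CCAAT and 13.6% held TATAAA, so that the presence of either is common.

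In the exon 6-7 line all 10 genes were higher on average in the knockouts, with a median log2 fold change of 0.55 against -0.0020 over all genes tested, and none of the 10 passed the test. The test was limma on log2(scaled FPKM + 1), with Benjamini-Hochberg adjustment over the 14213 genes and a threshold of 0.05; 0.0141% of all genes passed it in this comparison. The lowest adjusted p of the 10 was 0.925, for Slc22a6. At an unadjusted p under 0.05, 6 of the 10 stood higher, against 2.03% of all genes, and 4.1% of all genes in either direction. For 7 of the 10 every knockout was above every wild type, against 5.01% of all genes. Since the 10 were chosen with earlier results of these data known, these counts are a description and not independent evidence. With 3 mice against 3 an exact permutation test has 20 relabellings and cannot go below 0.1, which is the two-sided p of those 7.

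Both chains of type I collagen were higher in the exon 6-7 knockouts. Col1a1, which encodes the alpha 1 chain (chr11:94936224-94953042, + strand, mm10), was at 2.37, 3.08 and 3.22 FPKM in the wild types and at 3.54, 4.08 and 3.28 in the knockouts. Its groups did not overlap, though knockout KO864 stood only just above wild-type mouse WT865. Col1a2, the gene of the alpha 2 chain (chr6:4504814-4541544, + strand), was at 3.33, 4.12 and 3.37 FPKM in the wild types and at 5.49, 6.57 and 4.66 in the knockouts. These groups did not overlap either. The log2 fold change was 0.26 (SE 0.13, n = 3 per group) for Col1a1 and 0.51 (SE 0.15) for Col1a2. The ratio of Col1a2 to Col1a1 was 1.26 ± 0.191 (SD, n = 3) in the wild types and 1.53 ± 0.0976 in the knockouts, and was 1.68 ± 0.174 and 1.53 ± 0.139 in the exon 7 wild types and knockouts. The lowest ratio of the 12 mice, 1.05, was that of wild-type mouse WT865.

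Of the 3 small leucine-rich proteoglycans, Ogn showed the widest gap. Ogn, which encodes osteoglycin (chr13:49608046-49624501, + strand), was at 2.34, 2.57 and 1.05 FPKM in the exon 6-7 wild types and at 3.71, 4.26 and 4.22 in the knockouts. The log2 fold change was 0.80 (SE 0.22), and it was 0.55 without mouse WT865, in which Ogn was lowest. Ogn lies opposite to Cenpp, a gene of a kinetochore protein on the other strand, which was at 0.754 to 1.97 FPKM in the 12 mice; no source used here says whether reads were counted by strand, so reads of the 2 genes may be mixed. Dcn, the gene of decorin (chr10:97479609-97518143, + strand), was at 33.4, 32.2 and 33.7 FPKM in the wild types and at 37.4, 38.7 and 37.7 in the knockouts. The gap was small beside the level (log2 fold change 0.19, SE 0.10), and both groups were tight. Lum, the gene of lumican (chr10:97565128-97572703, + strand), was at 2.29, 3.07 and 2.55 FPKM in the wild types and at 3.58, 3.15 and 2.83 in the knockouts (log2 fold change 0.21, SE 0.17). These groups overlapped, since wild-type mouse WT809 stood above knockout KO864. Dcn and Lum are neighbours on chromosome 10, 47.0 kb apart with no protein-coding gene between them, and Dcn stood 10.4 to 26.8 times as high as Lum in the 12 mice.

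The other matrix and stromal genes were Aebp1 and Islr. Aebp1, whose secreted product binds collagen (chr11:5861947-5872088, + strand), was at 6.35, 9.42 and 5.32 FPKM in the exon 6-7 wild types and at 8.62, 13.8 and 10.7 in the knockouts. The groups overlapped through wild-type mouse WT809 and knockout KO776, and the log2 fold change was 0.59 (SE 0.24). Islr, which encodes a membrane-anchored protein of mesenchymal stromal cells (chr9:58156268-58204306, - strand), was at 8.89, 9.13 and 8.12 FPKM in the wild types and at 9.33, 9.93 and 9.28 in the knockouts. The groups did not overlap, and the log2 fold change of 0.11 (SE 0.11) was the smallest of the 10. The annotated span of Islr overlaps Islr2 on the same strand, a gene at 32.0 to 46.3 FPKM, so reads may have been split between them.

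The 2 carriers had the largest ratios of group means, 2.15 for Slc13a4 and 2.06 for Slc22a6, with Ogn next at 2.04. Slc13a4, a sodium-dependent sulfate carrier (chr6:35267957-35308131, - strand), was at 4.32, 8.75 and 1.76 FPKM in the exon 6-7 wild types and at 9.84, 12.0 and 10.1 in the knockouts. The groups did not overlap, but the wild types spread widely, with mouse WT809 close to the knockouts and mouse WT865 far below. The log2 fold change was 1.15 (SE 0.33), it fell to 0.69 without mouse WT865 and came to 1.6 without mouse WT809. Slc22a6, the organic anion transporter OAT1, which is best known from the proximal tubule of the kidney (chr19:8618039-8628299, + strand), was at 1.23, 1.20 and 0.856 FPKM in the wild types and at 2.61, 2.43 and 1.74 in the knockouts. The groups did not overlap, and the log2 fold change was 0.63 (SE 0.16). Its neighbour Slc22a8, the related transporter OAT3, lies 6.2 kb away and was at 4.52, 6.2 and 4.53 FPKM in the wild types and at 6.23, 7.40 and 5.24 in the knockouts (log2 fold change 0.26), which overlapped.

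Igf2 was at 56.8, 124 and 54.9 FPKM in the exon 6-7 wild types and at 103, 130.3 and 99.0 in the knockouts. Wild-type mouse WT809 stood above 2 of the 3 knockouts, so the groups overlapped (exact permutation test, two-sided p = 0.3). The log2 fold change was 0.59 (SE 0.26), with 0.38 without mouse WT865 and 0.96 without mouse WT809. Igf2 (chr7:142650766-142666816, - strand) lies 1.34 Mb from Shank2 on chromosome 7 with 22 protein-coding genes between them. A list of imprinted and neighbouring genes of Igf2 on chromosome 7, which is not the set of genes between Igf2 and Shank2, was also followed. Of its 13 genes tested, 4 were above 0 and 9 below (median -0.042 on the log2 scale). Without mouse WT865, 6 of the 13 were above 0 (median -0.0024). With all mice none passed limma's test and 1 had an unadjusted p under 0.05, against 4.1% of all genes. That gene was Cdkn1c, an imprinted inhibitor of cyclin-dependent kinases, at 9.96, 10.6 and 5.12 FPKM in the wild types and at 16.1, 12.7 and 11.7 in the knockouts; its log2 fold change was 0.64, and 0.35 without mouse WT865. H19, the maternally expressed RNA 72.6 kb from Igf2, was at 0.370 to 1.49 FPKM in the 12 mice and fell under the filter.

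**Figure D2:**
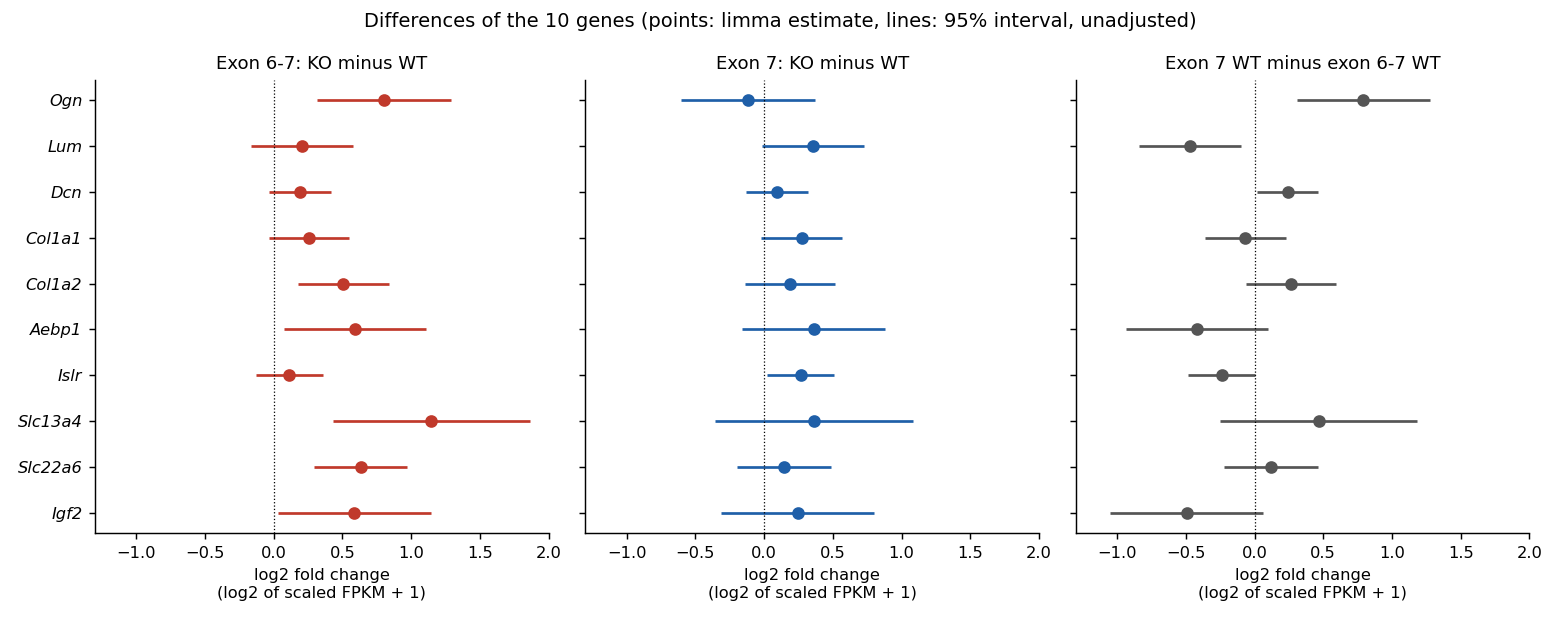
Log2 fold changes of the 10 genes (points) with their unadjusted 95% intervals (lines) for knockout against wild type in each line and for the exon 7 wild types against the exon 6-7 wild types. All 10 points lie above 0 in the exon 6-7 line, 9 of 10 in the exon 7 line, and 5 of 10 between the wild types (49.7% of all genes).

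In the exon 7 line most of the genes were also higher in the knockouts, with larger values than in the exon 6-7 line for Lum, Islr and Col1a1 and an opposite sign for Ogn. Of the 10 genes, 9 were higher on average in the knockouts, with a median log2 fold change of 0.26 against -0.0083 over all genes. None passed limma's test, which none of the 14213 genes passed (0.0%); at an unadjusted p under 0.05 the 10 held 1, Islr, and 3.46% of all genes did so. For no gene of the 10 was every knockout above every wild type, against 3.27% of all genes. Col1a1 was at 2.32, 3.34 and 2.5 FPKM in the wild types and at 3.18, 3.53 and 3.70 in the knockouts (log2 fold change 0.27, SE 0.13), and Col1a2 was at 4.32, 5.54 and 3.80 FPKM and at 4.76, 4.98 and 6.23 (0.19, SE 0.15). For both collagen genes wild-type mouse WT993 was the one that reached into the knockouts. Islr was at 6.85, 8.75 and 6.27 FPKM in the wild types and at 9.16, 8.30 and 9.25 in the knockouts (log2 fold change 0.27, SE 0.11, exact permutation p = 0.2), again with mouse WT993 above 1 knockout.

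The proteoglycans of the exon 7 line followed single mice. Ogn was at 5.00, 3.64 and 3.56 FPKM in the wild types and at 5.11, 2.72 and 3.38 in the knockouts, with the highest value of each group in its set A library. The log2 fold change of Ogn was -0.12 (SE 0.22). Lum was at 1.92, 1.38 and 1.57 FPKM in the wild types and at 3.44, 1.94 and 1.86 in the knockouts (log2 fold change 0.36, SE 0.17), and Dcn at 39.8, 36.1 and 42.1 and at 49.9, 38.3 and 38.7 (0.094, SE 0.10). Both were highest in knockout KO969, of set A, and without it the log2 fold change was 0.15 for Lum and -0.027 for Dcn. For the carriers, Slc13a4 was at 5.75, 7.27 and 5.74 FPKM in the wild types and at 6.97, 9.36 and 8.72 in the knockouts (log2 fold change 0.36, SE 0.33). Wild-type mouse WT993 stood above knockout KO969 here. Slc22a6 was at 1.28, 1.28 and 1.25 FPKM and at 1.81, 1.03 and 1.75, with knockout KO990 below all wild types (0.14, SE 0.16). Aebp1 was at 3.85, 6.28 and 4.76 FPKM in the wild types and at 4.88, 6.56 and 8.68 in the knockouts (0.36, SE 0.24), with mouse WT993 above knockout KO969 again. Igf2 was at 52.4, 55.6 and 46.6 FPKM and at 50.6, 63.7 and 70.6 (0.24, SE 0.26), and the set A knockout KO969 was the one among the wild types. Within set A, 1 knockout against 1 wild type, the differences were 0.61 for Lum, 0.02 for Ogn and -0.05 for Igf2, and within set B they were 0.23, -0.19 and 0.39.

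Averaged over both lines, all 10 genes were higher in knockouts, against 47.5% of all genes, and their median log2 fold change was 0.35 against -0.0049. None passed limma's adjusted threshold, which 0.0141% of all genes did, and 8 stood higher at an unadjusted p under 0.05, against 1.89%. The exact permutation test over the 400 joint relabellings can reach 0.005 here. Its two-sided p was 0.01 for Slc13a4 (mean log2 fold change 0.76), 0.015 for Col1a1 (0.26), 0.02 for Slc22a6 (0.39) and 0.025 for Col1a2 (0.35). It was 0.03 for Lum and for Islr, 0.04 for Aebp1, 0.055 for Dcn, 0.095 for Igf2 and 0.17 for Ogn. These p-values are for single genes and are not adjusted for the 10 tested. Without mouse WT865 the mean log2 fold change was 0.52 for Slc13a4 and 0.22 for Ogn, against 0.34 for Ogn with all mice. Since the genes were known from earlier results of these data, the p-values are not independent evidence.

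The knockout effect was larger in the exon 6-7 line for 7 of the 10 genes, and the difference between lines passed limma's test for none, against 0.00704% of all genes; 2 had an unadjusted p under 0.05, against 3.88%. Ogn had the largest difference, 0.92 on the log2 scale (95% interval 0.23 to 1.61), and 0.67 without mouse WT865. The exact permutation test gave a two-sided p of 0.035 for it. That test relabels within lines and so assumes no knockout effect in either line, which is not a test of equal effects. For Ogn the 3 exon 6-7 wild types, at 1.05 to 2.57 FPKM, were below all 9 other mice, which were at 2.72 to 5.11. The difference was 0.78 (95% interval -0.23 to 1.80) for Slc13a4 and 0.49 (0.01 to 0.97) for Slc22a6. Without mouse WT865 it was 0.32 (SE 0.30) for Slc13a4 and 0.40 (SE 0.23) for Slc22a6, whose unadjusted p was then 0.109 by limma, with an adjusted p of 0.972. For Col1a1 the difference was -0.02 (95% interval -0.43 to 0.40), which leaves room for either line to have the larger effect.

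The wild types of the 2 lines were compared to see how the levels differ without a Shank2 deletion. Line, library preparation and any other difference between the lines cannot be told apart here. Of the 10 genes, 2 passed limma's test in this comparison, against 67.1% of all genes. By limma, Ogn rose, with 1.99 ± 0.817 FPKM (SD, n = 3) in the exon 6-7 and 4.07 ± 0.812 in the exon 7 wild types (log2 difference 0.79, SE 0.22, adjusted p = 0.0076). By limma, Lum fell, from 2.64 ± 0.399 to 1.62 ± 0.274 FPKM (log2 difference -0.47, SE 0.17, adjusted p = 0.028). The call for Lum is lost without wild-type mouse WT809, WT865, WT993 or WT999, with no filter on low values and on the TPM scale, with an adjusted p of up to 0.10. Every exon 7 wild type was above every exon 6-7 wild type for Ogn, Dcn and Slc22a6, and below for Lum, against 35.6% and 34.6% of all genes. In limma's test Dcn was at 33.1 ± 0.836 and 39.3 ± 3.03 FPKM (log2 difference 0.24, adjusted p = 0.056) and Igf2 at 78.4 ± 39.1 and 51.6 ± 4.56 (-0.49, adjusted p = 0.11). Igf2 turned on single mice, with -0.12 (adjusted p = 0.53) without mouse WT809 and -0.69 without mouse WT865, where it passed (adjusted p = 0.040). Slc13a4 passed without mouse WT809 (log2 difference 0.91, limma's adjusted p = 0.0060) and was at 0.0039 without mouse WT865. Scaling moves this comparison as a whole: the median of all genes was -0.0052 after scaling, -0.13 with values as deposited and 0.13 on the TPM scale. Col1a1 (log2 difference -0.067) turned to 0.048 on the TPM scale, where it thus stood below the shift of all genes.

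The 10 genes did not rise and fall together in all mice. In the exon 6-7 line knockout KO777 had the highest level of 8 of the 10 and knockout KO776 that of Lum and Slc22a6. Wild-type mice WT778 and WT865 were below the mean of the line for all 10 genes, and wild-type mouse WT809 was above it for 5. In the exon 7 line knockout KO994 was highest for Col1a1, Col1a2, Aebp1, Islr and Igf2, and knockout KO969 for Ogn, Lum, Dcn and Slc22a6. Of the deviations from the group means over the 12 mice, those of Igf2 and Slc13a4 were most alike among the 45 pairs (Pearson's r = 0.86), and 32 pairs had r above 0 with a median of 0.32; libraries and scaling are shared by all genes, and r is given as a description. The deviation of a gene against the mean of the other 9 gave r = 0.79 for Igf2 and 0.75 for Slc13a4, but 0.088 for Lum and -0.24 for Dcn. Among all other genes tested, the deviations most like the mean of the 10 were those of Ifitm2, an interferon-induced membrane protein at r = 0.96, then Ipo4, Six5, Trim68, Lama5, Flna, Ndor1, Snhg17, Rab34 and Dennd6b, down to r = 0.93. Of these 10, 4 were above 0 and 6 below in the exon 6-7 line, and 8 were above 0 in the exon 7 line. Those above 0 in both were Ifitm2 (log2 fold changes 0.29 and 0.29), Lama5, a laminin chain of basement membranes (0.50 and 0.23), and Six5 (0.012 and 0.12).

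**Figure D3:**
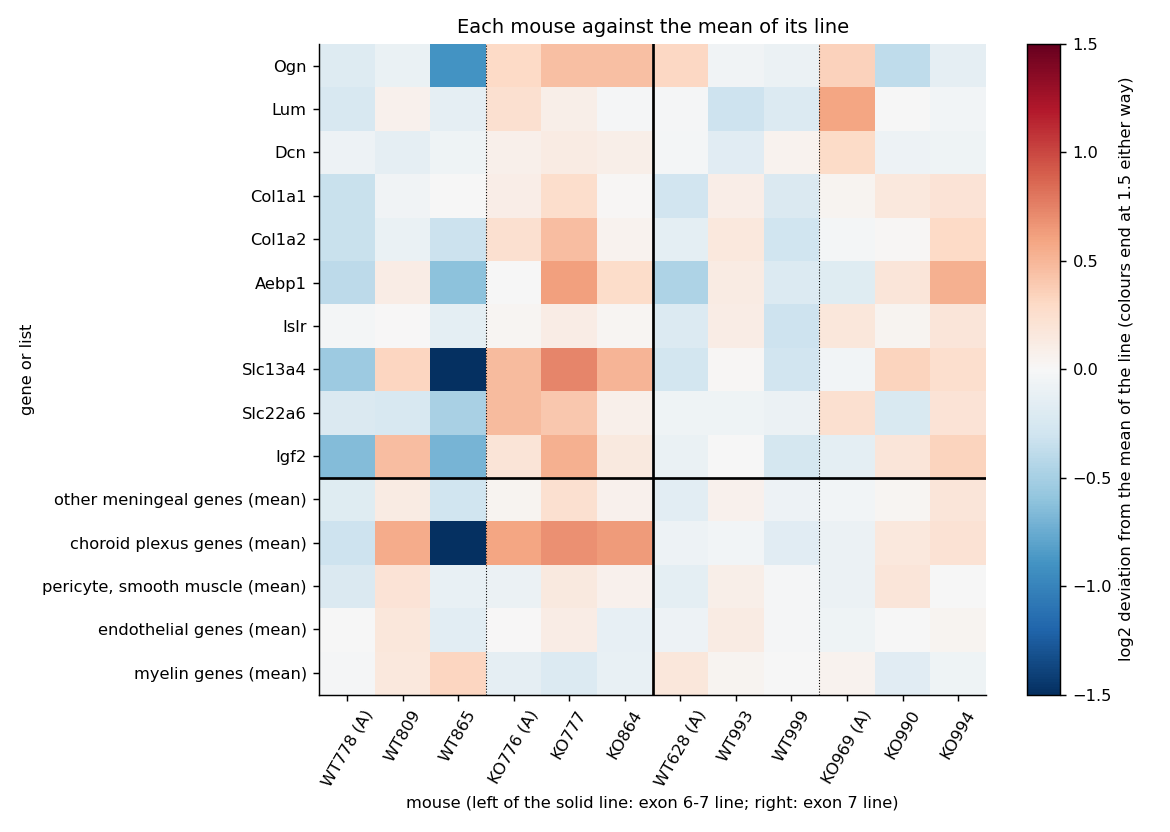
Log2 deviation of each mouse from the mean of its line for the 10 genes (upper rows) and, as the mean over the genes of a list, for other meningeal, choroid plexus, mural, endothelial and myelin genes (lower rows); red is above the mean, blue below, and A marks set A. The column of wild-type mouse WT865 is below the mean for all 10 genes, though by little for Col1a1 (-0.0040) and Dcn (-0.069). It is at the end of the scale or close to it for Slc13a4 and the choroid plexus list. The column of wild-type mouse WT809 is red for Slc13a4, Aebp1, Igf2 and the choroid plexus list. It is below the mean for Ogn, Slc22a6, Col1a1, Col1a2 and Dcn.

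Other meningeal and fibroblast genes leaned the same way by less. Of 66 listed by name, 51 passed the filter on low values. In the exon 6-7 line 42 of the 51 were above 0 (49.4% of all genes were), and the median log2 fold change of the 51 was 0.20. None passed limma's test, while 13 had an unadjusted p under 0.05, against 4.1% of all genes. Every knockout was above every wild type for 10 of the 51 and below for 1, against 5.01% and 6.31% of all genes. Pcolce, the enhancer of procollagen C-proteinase, was at 8.70, 12.4 and 4.83 FPKM in the wild types and at 13.2, 16.5 and 16.5 in the knockouts (log2 fold change 0.84, SE 0.24). Crabp2, a retinoic acid binding protein, had a log2 fold change of 0.71 (SE 0.20) and Zic4, a zinc finger factor of the meninges, one of 0.47 (SE 0.14). Without mouse WT865, 40 of the 51 were above 0 with a median of 0.14, and the log2 fold change was 0.52 for Pcolce, 0.79 for Crabp2 and 0.42 for Zic4. In the exon 7 line 40 of the 51 were above 0 (46.7% of all genes were), with a median of 0.10. None passed and 1 had an unadjusted p under 0.05, against 3.46% of all genes. That gene was Loxl1, a collagen and elastin cross-linking oxidase, at 1.52, 1.87 and 1.62 FPKM in the wild types and at 2.01, 3.15 and 2.91 in the knockouts (log2 fold change 0.46, SE 0.16).

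The wider families of the 10 genes were followed in the same way. Of 16 small leucine-rich proteoglycans, 8 passed the filter, and the 8, which include Ogn, Lum and Dcn, were all above 0 in the exon 6-7 line (median 0.28) and 6 of 8 were in the exon 7 line (median 0.10). Ecm2, which lies in a row with Ogn, Omd and Aspn on chromosome 13 with gaps of 11.7 to 15.2 kb, was at 1.86, 2.92 and 1.46 FPKM in the exon 6-7 wild types and at 3.33, 3.05 and 3.56 in the knockouts. It was at 3.66, 2.51 and 2.30 FPKM in the exon 7 wild types and at 4.34, 3.75 and 4.03 in the knockouts, so that the groups did not overlap in either line (log2 fold changes 0.51 and 0.41). Omd and Aspn were too low to be tested. Of 24 genes for making, trimming and cross-linking type I collagen, 13 were above 0 in the exon 6-7 line (median 0.085) and 12 in the exon 7 line (median 0.025), near the share of all genes. Of 13 genes of the Igf2 pathway, 11 were above 0 in the exon 6-7 line (median 0.16) and 8 in the exon 7 line (median 0.045). Igf2r, the receptor that clears Igf2, was at 2.74, 3.32 and 2.99 FPKM in the exon 6-7 wild types and at 3.74, 4.08 and 3.78 in the knockouts (log2 fold change 0.28, SE 0.09), and Igfbp2, a binding protein of both insulin-like growth factors, was at 77.2, 128 and 34.6 and at 126, 153 and 112 (0.88, SE 0.38). None of the genes of these families passed limma's test in either line. At an unadjusted p under 0.05 the counts in the exon 6-7 line were 3 proteoglycans, 2 collagen genes and 3 pathway genes, against 4.1% of all genes. In the exon 7 line they were 1, 2 and 0, against 3.46% of all genes. The 3 proteoglycans include Ogn, which is among the 10 genes. Pcolce and Igfbp2 are also in the list of other meningeal genes, so the lists are not separate. Without mouse WT865 the exon 6-7 medians were 0.25 for the proteoglycans, 0.037 for the collagen genes and 0.073 for the pathway genes, of which 10 of 13 were above 0. Igfbp2, lowest in that mouse, was then at a log2 fold change of 0.38, Igf2r at 0.28 and Ecm2 at 0.36.

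Markers of the choroid plexus were also higher on average in the knockouts of the exon 6-7 line. All 23 tested were above 0 there (49.4% of all genes were), with a median log2 fold change of 1.30. Every knockout was above every wild type for 10 of the 23, against 5.01% of all genes. None of the markers passed limma's test, while 19 had an unadjusted p under 0.05, against 4.1% of all genes. The summed level of the 23 markers was 142 to 9310 FPKM in the wild types and 7530 to 9203 in the knockouts, and no marker tested was at 0 in any mouse. Ttr, the transthyretin made by its epithelium, was at 3934, 8494 and 35.6 FPKM in the wild types and at 7479, 8291 and 6615 in the knockouts. Wild-type mouse WT809 had as much Ttr as the knockouts. It was the highest wild type for Ogn, Slc13a4, Col1a2, Lum, Aebp1, Islr and Igf2, and not for Slc22a6, Col1a1 and Dcn. Of the 10 genes, 5 were above the mean of the line in mouse WT809, while Ogn, Slc22a6, Col1a1, Col1a2 and Dcn were below it. Mouse WT865 had the least Ttr, Ogn, Slc13a4, Slc22a6, Aebp1, Islr and Igf2 of the line, and the most Col1a1 and Dcn of the wild types. Igf2 was at 56.8 FPKM in mouse WT778 and 54.9 in mouse WT865, where Ttr was at 3934 and 35.6. Without mouse WT865 the median of the 23 markers was 0.53 and that of the 10 genes 0.41, with all 23 and all 10 above 0. Every knockout was then above both remaining wild types for 7 of the 10, and for 1683 of the 14213 genes tested. In the exon 7 line the summed choroid plexus level was 1900.3 to 2212 FPKM in the wild types and 2191 to 2921 in the knockouts. There 21 of 23 markers were above 0, against 46.7% of all genes, with a median of 0.19. Within set A 9 of the 23 were above 0 (median -0.032), and within set B 21 were (median 0.30). The part of the choroid plexus in the differences of the 10 genes was not tested.

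Vessel markers in the exon 6-7 line had medians nearer to 0 than that of the 10 genes, with and without mouse WT865. Of 18 endothelial genes 9 were above 0 in the exon 6-7 line (median 0.0094) and 7 in the exon 7 line (median -0.033), with summed levels of 242 to 307 FPKM in the exon 6-7 wild types and 234 to 288 in the knockouts. Without mouse WT865, 5 of the 18 were above 0 in the exon 6-7 line (median -0.11). Of 15 genes of pericytes and smooth muscle 12 were above 0 in the exon 6-7 line (median 0.067; without mouse WT865, 9 and 0.082) and 8 in the exon 7 line (median 0.086). Neither list had a gene that passed limma's test or an unadjusted p under 0.05. The 5 blood genes tested were above 0 in both lines (median 0.15 and 0.73), with 2 at an unadjusted p under 0.05 in the exon 7 line, against 3.46% of all genes. The summed level of the blood genes was lowest of each line in the set A wild types, at 277 FPKM in mouse WT778 and 101 in mouse WT628. Within set B, 0 of the 5 were above 0 in the exon 6-7 line (median -0.29) and 4 in the exon 7 line (median 0.13), and without mouse WT865 the exon 6-7 median was 0.32. All 15 myelin genes were below 0 in the exon 6-7 line (median -0.32) and 14 in the exon 7 line (median -0.12). At an unadjusted p under 0.05 were 9 and 0 of them, against 4.1% and 3.46% of all genes, and none passed limma's threshold. The summed myelin level was 5928 to 7419.9 FPKM in the exon 6-7 wild types, highest in mouse WT865, and 5207 to 5393 in the knockouts. Without mouse WT865, 1 of the 15 was above 0 in the exon 6-7 line (median -0.28). The part of any of these tissues in the differences of the 10 genes was not tested.

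**Figure D4:**
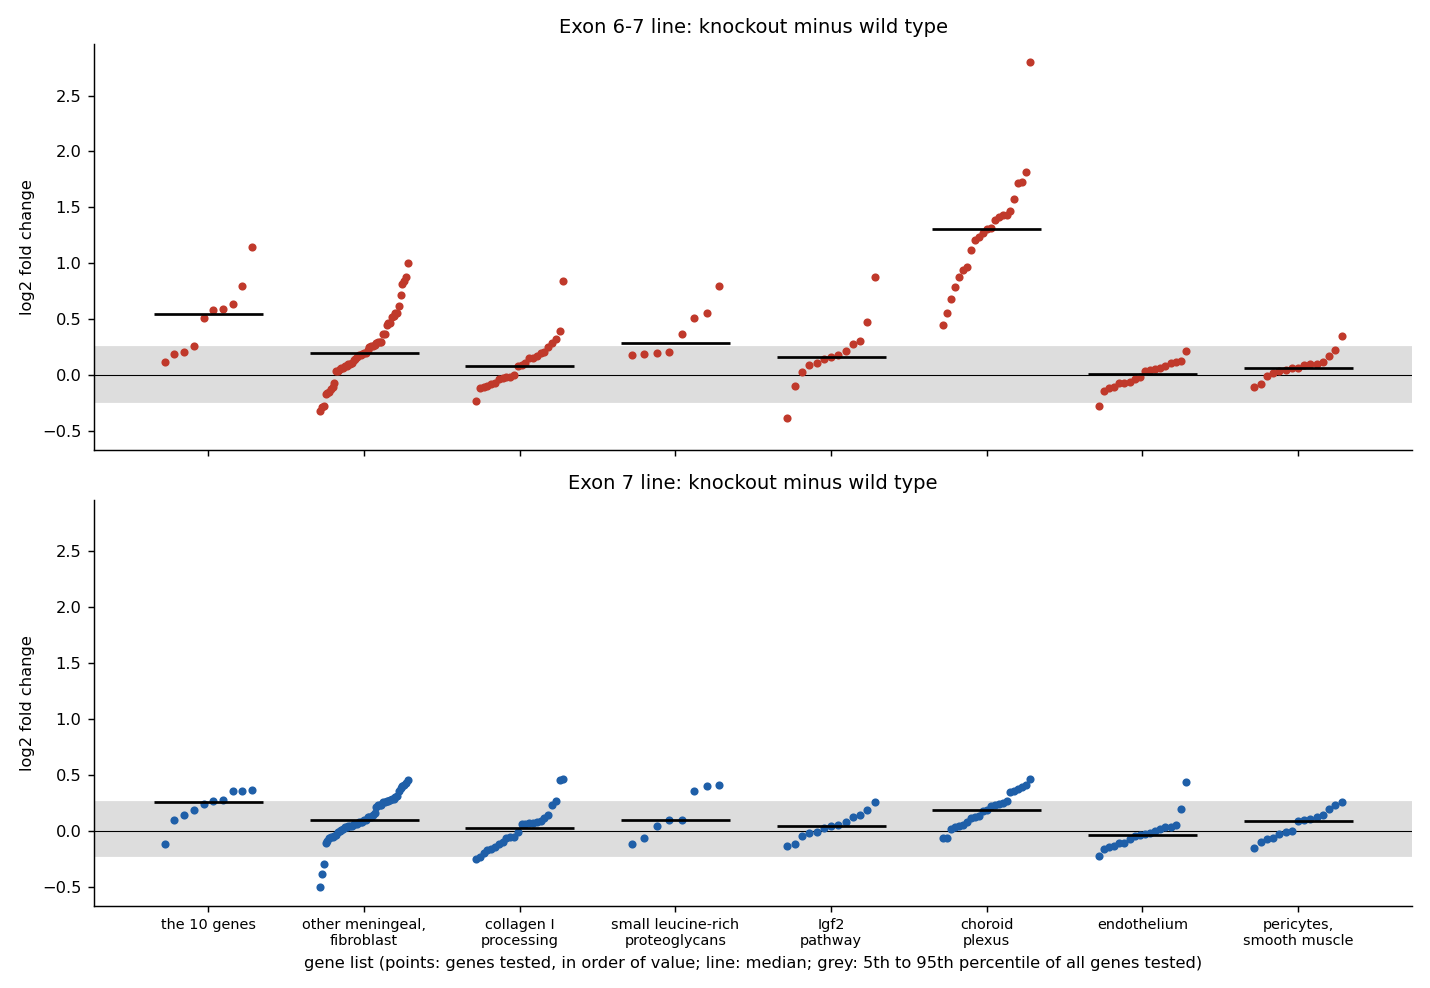
Log2 fold change of knockout against wild type for each gene tested of 8 lists (points, in order of value) with the list's median (line) in the exon 6-7 line (upper panel) and the exon 7 line (lower panel); the grey band spans the 5th to 95th percentile of all 14213 genes. The 10 genes have medians of 0.55 and 0.26, other meningeal genes 0.20 and 0.10, choroid plexus genes 1.30 and 0.19, and endothelial genes 0.0094 and -0.033.

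Each mouse of the exon 6-7 line was left out in turn. The log2 fold change of each of the 10 genes stayed above 0 in all 6 cases, with ranges of 0.55 to 0.95 for Ogn, 0.69 to 1.6 for Slc13a4, 0.55 to 0.75 for Slc22a6 and 0.40 to 0.61 for Col1a2. The range was 0.38 to 0.96 for Igf2, 0.43 to 0.80 for Aebp1 and 0.16 to 0.32 for Col1a1. Without mouse WT865 it was 0.32 for Col1a1, 0.47 for Col1a2, 0.55 for Slc22a6, 0.44 for Aebp1, 0.20 for Dcn, 0.19 for Lum and 0.070 for Islr. No gene of the 10 passed in any of these fits. The nearest by limma were Slc13a4 (adjusted p = 0.069) and Igf2 (adjusted p = 0.090) without wild-type mouse WT809. In that case all 10 genes had every knockout above both remaining wild types, as did 1260 of the 14213 genes tested. Over the alternatives tried, limma's adjusted p ranged from 0.069 to 1.0 for Slc13a4 and from 0.090 to 1.0 for Igf2.

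**Figure D5:**
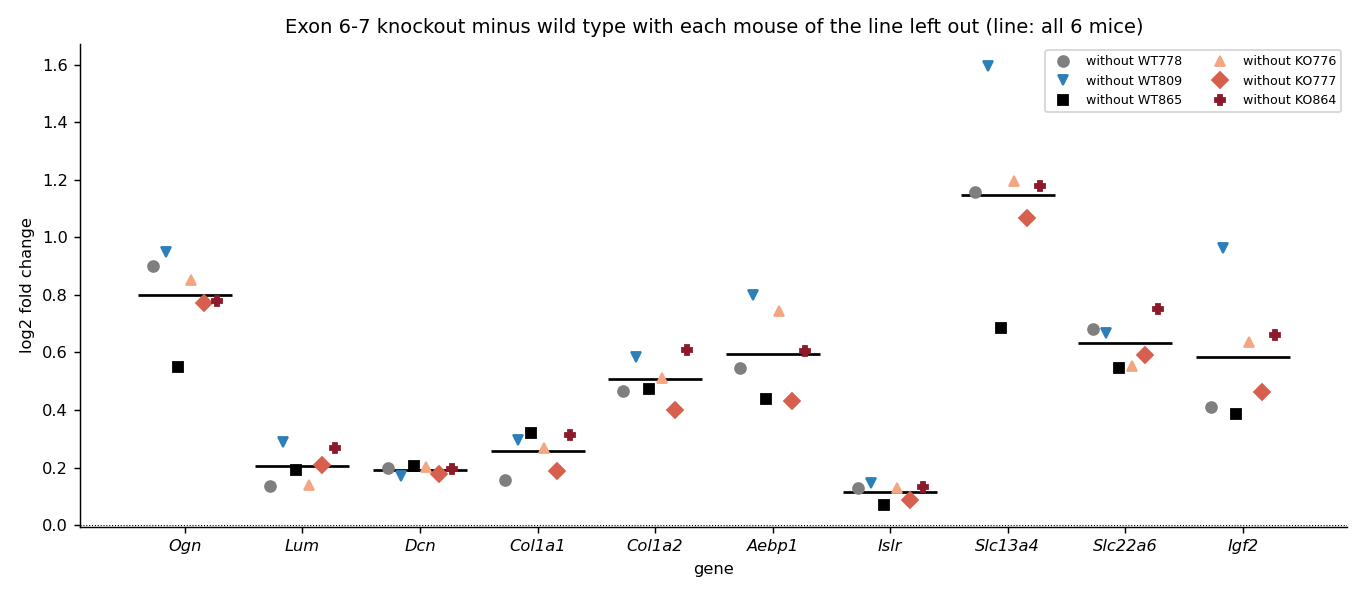
Log2 fold change of knockout against wild type in the exon 6-7 line for each of the 10 genes with all 6 mice (horizontal line) and with each mouse left out (points). All points lie above 0; leaving out wild-type mouse WT809 gives the highest value for Slc13a4, 1.6, and for Igf2, 0.96, and leaving out wild-type mouse WT865 gives the lowest for both, 0.69 and 0.38.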

How the data were processed

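Per the labels' protocols, RNA was taken from hippocampi with TRIZOL, selected for poly(A) and built into size-selected TruSeq libraries. CASAVA, GSNAP, Cufflinks and mm10 are named in the submitters' processing notes, without roles. The authors deposited FPKM per Ensembl gene, 1 table a mouse, per the file headers; depth is therefore unknown and no counting error is attached. How reads were counted and whether strand was used is not stated.

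Unlisted genes were set to 0. Scaling used the median of ratios over 12511 genes (factors 0.919 to 1.07). Genes averaging 1 FPKM or more, less 115 small RNAs, entered limma 3.58.1 (limma-trend, R 4.3.3) on log2(scaled FPKM + 1), which understates changes of low genes: 4 group means over 12 libraries, 8 residual degrees of freedom, two-sided, Benjamini-Hochberg over 14213 genes, threshold 0.05. The fit was tested on simulated data. Exact permutation tests relabelled mice within lines. Positions came from GENCODE M21 and promoters from RefSeq. No 2 libraries shared more than 0.00546% of their values. Each mouse number occurs once and each mouse gave 1 library; p-values rest on the variation among mice.

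The 10 genes and all lists were chosen with earlier results of these data known. Named are the 10, Shank2, Ttr, up to 3 list genes with the smallest p (6 where genes passed), and the 10 genes most like their mean; other genes were added as neighbours, overlaps or tissue markers, and Ecm2 in the exon 7 line, after their values were seen. Alternatives covered pseudocounts, filters, scalings, each line alone, array weights, library sets and each mouse left out; list counts without WT865 or within a set, and list genes without WT865, were added after seeing the data.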

Additional observations from a re-analysis of the deposited data

Results flagged for a closer look

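For Ogn the difference of the knockout effects between the 2 lines was 0.92 on the log2 scale. The exact permutation test gave a two-sided p of 0.035 over 400 relabellings, not adjusted for the 10 genes. Its relabelling within lines assumes no knockout effect in either line, so it is not a test of equal effects. Limma's test over all 14213 genes did not call the difference. Ogn was higher in 3 of 3 exon 6-7 knockouts than in all wild types of that line, and its groups overlapped in the exon 7 line. The difference was 0.67 without wild-type mouse WT865. No other gene of the 10 had an exact p under 0.05 for this difference.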

How the results depend on the processing

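FPKM without read totals limits what low genes can show, and 3 mice a group cannot bring an exact test within a line under 0.1. No paired analysis was made, because the sample labels used do not pair a knockout with a wild type, by litter or otherwise. In the exon 6-7 line all 10 genes stayed above 0 and none passed under any alternative. The lowest of limma's adjusted p-values of the 10 there was 0.925 in the main fit. It was 0.376 with a term for the library sets and 0.375 with array weights. The count of the 10 with groups apart was 3 with the 5 FPKM filter, which keeps 5 of the 10, 5 with quantile normalization, 6 as deposited, and 7 to 10 with a mouse left out. Over all genes, knockouts were wholly higher for 400 of 10215 with that filter and for 602 of 14213 with quantile normalization. They were so for 759 as deposited and for 1169 to 1693 with a mouse of the line left out. In the exon 7 line the count of the 10 wholly higher was 1 as deposited, 1 on the TPM scale and 0 to 5 with a mouse left out, and 0 to 1 gene was wholly lower. Over all genes, 466 were wholly higher there as deposited, 739 on the TPM scale and 820 to 1700 with a mouse of that line left out. In the last case 877 to 1821 were wholly lower. Array weights gave -0.019 for Slc22a6 and -0.010 for Dcn in the exon 7 line and 0.019 for the Col1a1 difference between lines; the cause was not tested. With a mouse left out, exon 7 values ran from -0.32 to 0.041 for Ogn and -0.027 to 0.16 for Dcn, differences between lines from -0.13 to 0.061 for Col1a1 and -0.26 to 0.055 for Lum, and wild-type differences from -0.18 to 0.011 for Col1a1, which was 0.048 on the TPM scale. Between wild types, genes passing numbered 1 with no filter, 0 with the 5 FPKM filter, 4 as deposited, 5 with quantile normalization and 1 to 3 with a mouse left out. Over all genes, 10356 of 24368 passed with no filter and 7387 of 10215 with the 5 FPKM filter, which leaves out Ogn and Lum. Of all 14213 genes, 9640 passed as deposited, 9435 with quantile normalization and 8696 to 9777 with a mouse left out. Of the 10, genes wholly higher there numbered 1 with the 5 FPKM filter, 1 as deposited and 3 to 5 with a mouse left out. Those wholly lower numbered 0 with that filter, 3 as deposited, 2 with quantile normalization and 1 to 4 with a mouse left out. Over all 14213 genes, 5275 to 5598 were wholly higher and 5127 to 5489 wholly lower with a wild type left out. As deposited 4247 were wholly higher and 5751 wholly lower, and with quantile normalization 5135 were wholly lower. With the 5 FPKM filter 3644 of 10215 were wholly higher and 3970 wholly lower. The 10 genes summed to means of 267, 384, 255 and 308 on the TPM scale in the exon 6-7 wild types and knockouts and the exon 7 wild types and knockouts, and to 117 FPKM as deposited in the exon 7 wild types. A pseudocount of 5 brought the exon 6-7 median to 0.27.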
